A study of Mus musculus with 12 samples.

Results

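In mouse P19 cells, 2643 regions of the genome were bound by MyoD and by a chimeric MyoD carrying the DNA-binding domain of NeuroD2, and appeared in none of 3 other lists of binding sites from the same cells. The intervals of the 5 deposited lists were pooled, intervals sharing at least 1 base were joined, and the regions kept were those with a MyoD site and a chimera site but no NeuroD2, WC or WCS site. They made up 4.40% of the 60136 joined regions, 10.7% of the 24725 regions with a MyoD site and 18.5% of the 14275 regions with a chimera site. These figures depend on where each list ends: the number was 1524 with the upper 50% of every list by value and 4075 with only the NeuroD2, WC and WCS lists cut so. With all lists shortened to the length of the chimera list, 20.6% of MyoD sites lay in such regions, and with only the other 3 lists cut, 28.4% of chimera sites did. The regions were chosen by presence or absence of a deposited site, so their levels in the MyoD and chimera lists are given as a description, with no test.

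MyoD starts the skeletal muscle programme and NeuroD2 acts in differentiating neurons, and both are transcription factors with a basic helix-loop-helix (bHLH) domain. The helix-loop-helix part pairs such a factor with a partner, and the basic part contacts a short DNA element called an E-box, whose central and flanking bases differ in how well each factor reads them. MyoD also has a stretch next to its bHLH domain that is known to contact the homeodomain proteins Pbx and Meis, which lets it reach some sites where those proteins already sit.

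Binding was mapped with ChIP-seq, in which DNA fixed to a protein is pulled down by an antibody and sequenced, in P19 cells, a mouse embryonal carcinoma line that can be driven towards neurons. Of the 12 libraries, 2 each came from cells transduced with MyoD, with NeuroD2, with MD(ND2bHLH) chimera, with MD(ND2bHLH)WC mutant and with MD(ND2bHLH)WCS mutant, and 2 from cells without transduction. The chimera is MyoD with its bHLH domain exchanged for that of NeuroD2. The mutants, here WC and WCS, carry changes in the chimera that the labels do not spell out. All cells were given a neuronal medium from 48 h after infection. MyoD antibodies 6196 and 6975 were used, 1 for each library, with MyoD and the 3 proteins derived from it, and NeuroD2 antibodies 1165 and 1240 with NeuroD2. Each transduced group has 1 list from its 2 libraries, which leaves no replicate error to set beside a value, and nothing was tested. No list of the cells without transduction was analysed here, so no background binding can be set beside the values.

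The lists hold 24935 sites for MyoD, 14375 for the chimera, 31458 for NeuroD2, 27045 for WC and 22462 for WCS, and read depth is unknown. Each site carries a value from the authors, here read as −log10 of a p-value, and all values lie above 5. Values were compared only as ranks within a list, as the percentile of the site among all sites of that list, with 100 for the highest. The MyoD and chimera lists have 0 sites on chromosome X, whereas the other 3 have 362 to 570 there and also hold sites as short as 53 or 54 bp. A difference in site filters or batch between the lists and a difference between the proteins therefore cannot be told apart in any of the results that follow. Coordinates are 1-based in mm9. No genome or annotation of that build was used here, so no region is placed in a gene and no sequence is shown.

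The regions of MyoD and the chimera alone ranked higher in the MyoD list than in the chimera list. Their MyoD value ran from 5.04 through a median of 16.5 to infinity, and their chimera value from 5.04 through a median of 8.51 to 175.4. The median rank percentile was 68.1 in the MyoD list (quartiles 43.4 and 86.1) and 42.8 in the chimera list (22.3 and 67.7). The MyoD list is the longer one, and percentiles depend on list length. With all lists cut to the length of the chimera list the rule gave 2937 regions, and 2007 of the 2643 were kept. The medians of that changed set were 62.6 and 50.8, so the MyoD median was still the higher one. The chimera median was no longer below the middle of its list. The chimera list itself was not shortened, so its median moved with the choice of regions and not with its length. In the full lists the rank was higher in the MyoD list for 1917 of the 2643 regions, 72.5% (exact Clopper-Pearson 95% interval 70.8 to 74.2%, as for all shares below). These intervals cover counting error only and treat regions as independent. The same order held in 57.6% (56.3 to 58.9%) of the 5552 other regions with both a MyoD and a chimera site.

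The same direction was seen at the upper end of the full lists. The top 10% of the MyoD list took in 490 of the regions, 18.5% (17.1 to 20.1%), against 10.05% of all regions with a MyoD site. The top 10% of the chimera list took in 139, or 5.26% (4.44 to 6.18%), again against 10.05% of all regions with a chimera site. Both shares were lower than in the regions held by all 5 lists, where they were 27.9% for MyoD and 24.0% for the chimera. Both top groups together held 79 of the regions, 2.99% (2.37 to 3.71%), while 460 of the 3515 regions held by all 5 lists, 13.1% (12.0 to 14.2%), met that condition. A further 906 regions, 34.3%, stood in the upper 50% for MyoD and the lower 50% for the chimera, and only 203, 7.68%, the other way round. The ranks were loosely related: Spearman's rho across the 2643 regions was 0.34, and it was 0.41 across the regions of all 5 lists. Regions within a list share libraries and depth, and they are not independent replicates.

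**Figure D1:**
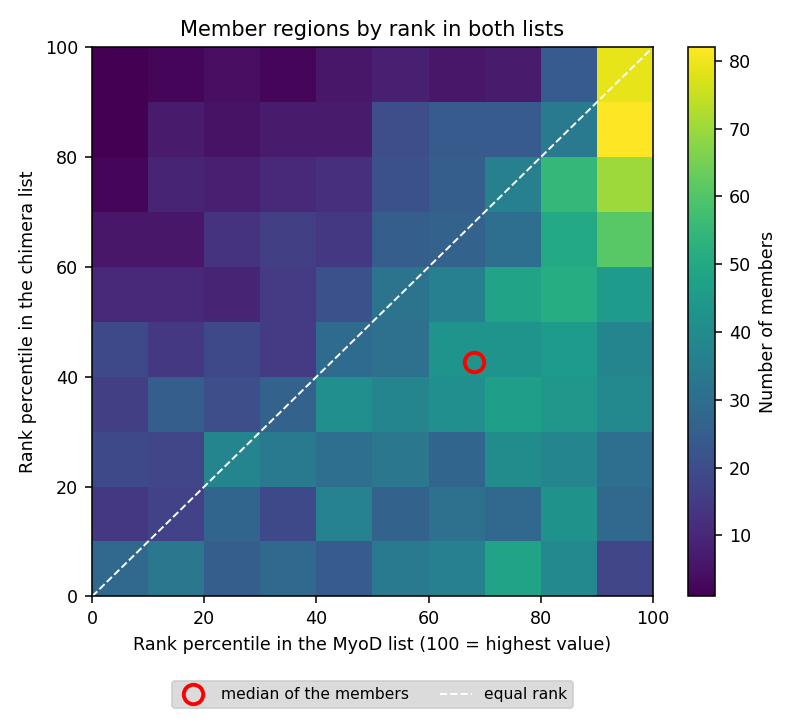
Number of the 2643 regions of MyoD and the chimera alone in each cell of 10 by 10 percentiles, by rank in the MyoD list (x axis) and in the chimera list (y axis). The red circle marks the medians, 68.1 and 42.8, and most regions lie below the dashed line of equal rank.

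Set beside other groups of regions, these differed from some by their MyoD rank and from others by their chimera rank. In the MyoD list they ranked well above regions held by MyoD alone, whose median percentile was 39.4 (n = 13371), and in the chimera list above regions held by the chimera alone, with 29.2 (n = 1972). The 7 other groups of regions with both sites had median MyoD percentiles between 64.0 and 77.0, a range that includes the 68.1 of the regions described here. In the chimera list these groups fell into 2 ranges according to the WC list. Without a WC site the median chimera percentile was 42.8 where WCS was the only other list (n = 204), 45.6 where NeuroD2 was (n = 252) and 42.8 where both were (n = 112). With a WC site it was 68.5 for WC as the only other list (n = 655), 60.5 for WC and WCS (n = 507), 62.4 for NeuroD2 and WC (n = 307) and 74.1 for all 5 lists (n = 3515). Among regions with both sites, those of MyoD and the chimera alone thus matched, in their chimera rank, the groups that lack a WC site. Where MyoD had no site, the median chimera percentile was 34.9 to 47.8 in groups with a WC site and 28.2 to 31.1 in groups without one. A chimera median near 42.8 was therefore also seen with a WC site. Read depth and the threshold of each list move with list membership, and their part was not tested.

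**Figure D2:**
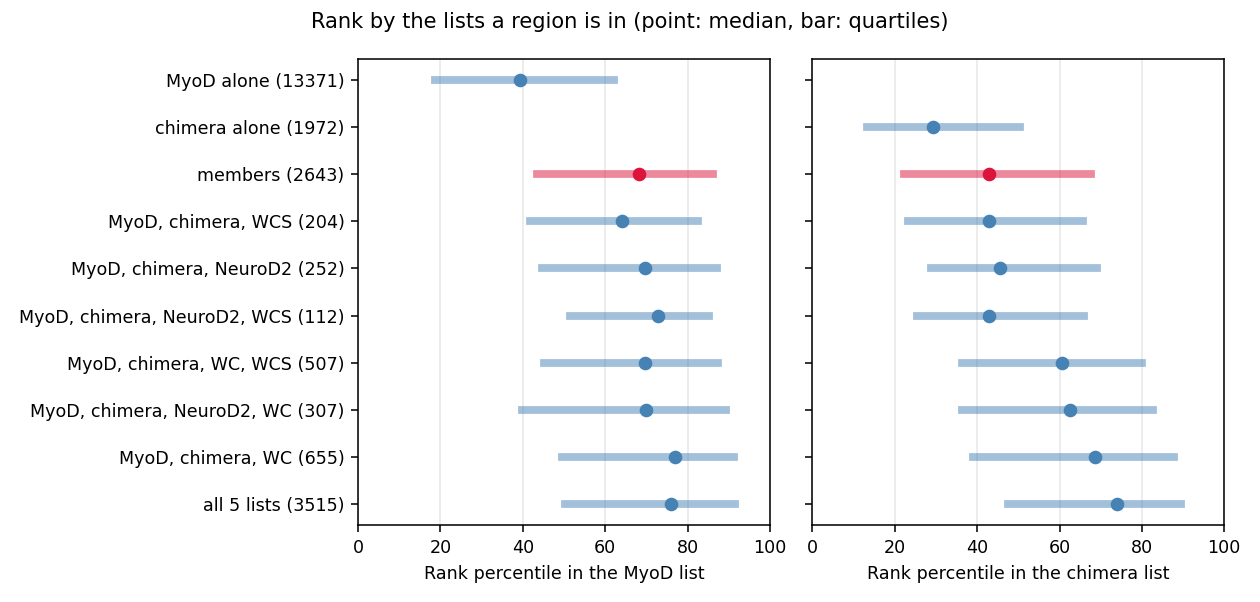
Median (point) and quartiles (bar) of the rank percentile in the MyoD list (left) and in the chimera list (right), by the lists that hold a region, with the number of regions in brackets. The regions of MyoD and the chimera alone are in red. At the right the groups with a MyoD, a chimera and a WC site have medians of 60.5 to 74.1. The 4 groups with both a MyoD and a chimera site but no WC site have medians of 42.8 to 45.6. Groups with chimera and WC sites but no MyoD site are not drawn.

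Whether a region with both sites was free of the other 3 lists went with its chimera value more than with its MyoD value. Of the 8195 regions with a MyoD and a chimera site, 32.3% were in no other list. Divided into 5 equal bins by chimera value, this share was 50.2% (47.7 to 52.6%) in the lowest bin and 42.0%, 32.6%, 24.2% and 12.3% (10.7 to 13.95%) in the bins above it. By MyoD value it was 35.9% (33.5 to 38.3%) in the lowest bin and 24.3% (22.2 to 26.4%) in the highest. With both values crossed, the share at the lowest chimera bin was between 46.2% and 53.1% in all 5 MyoD bins, and at the highest chimera bin between 10.5% and 13.8%. Within a MyoD bin the share in the lowest chimera bin exceeded that in the highest by 35.3 to 39.9 percentage points. Within a chimera bin the corresponding difference by MyoD value lay between −7.92 and 0.469 points, so the lower share at high MyoD value was not seen among regions of similar chimera value.

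**Figure D3:**
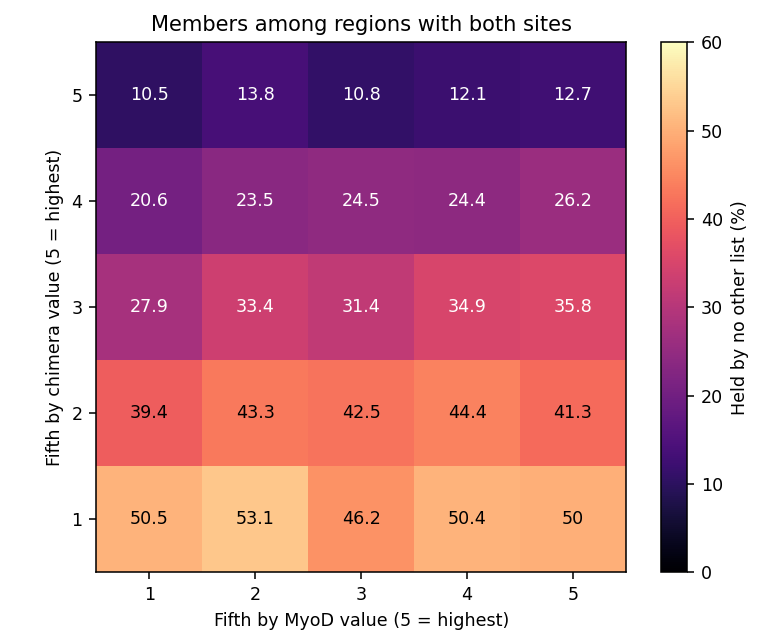
Percentage of regions with both a MyoD and a chimera site that are in no other list, by 5 equal bins of MyoD value (x axis) and 5 of chimera value (y axis), with bin 5 the highest. The bottom row lies between 46.2% and 53.1% and the top row between 10.5% and 13.8%.

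The 3 other lists moved in the same direction. From the lowest to the highest chimera bin the share of regions with both sites that WC held rose from 40.8% to 85.4%, the share NeuroD2 held from 35.5% to 70.8% and the share WCS held from 37.2% to 72.1%. Site width moved with these values too. Measured from the first to the last base of the MyoD and chimera sites, the narrowest of 3 equal groups (up to 425 bp) was free of the other lists in 41.8% and the widest (620 bp or more) in 24.8%. Within the narrowest group the share still went from 54.0% in the lowest chimera bin to 20.3% in the highest, and within the widest from 47.8% to 8.45%.

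Seen from the MyoD list, the chimera held strong MyoD regions more often than weak ones even where no NeuroD2, WC or WCS site was present. Of the 16014 regions with a MyoD site and none of those 3, the chimera held 16.5%, against 33.1% of all regions with a MyoD site and 65.9% of regions with a MyoD and a NeuroD2 site. The share was 6.40% (5.58 to 7.30%) in the lowest of 5 bins by MyoD value, at most 6.28, and 36.7% (35.1 to 38.4%) in the highest bin, from 18.9 upward. From the side of the chimera, MyoD held 57.3% of the 4615 chimera regions outside the other 3 lists, with 44.7% (41.5 to 48.0%) in the lowest and 76.8% (74.0 to 79.5%) in the highest bin by chimera value. Inside this pair of lists, joint occupancy thus went with the higher values of either one.

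The 6 regions with the highest MyoD values, picked for that value, stood at percentiles from 80.7 to 99.1 of the chimera list. Only percentiles are compared between the lists. The region on chromosome 4 from 134355944 to 134357204 had an infinite MyoD value and a chimera value of 81.1. It carries 1 MyoD site and 2 chimera sites. A region on chromosome 11 from 119486719 to 119487194 had values of 280.1 for MyoD and 63.5 for the chimera, and a NeuroD2 site lay only 54 bases outside it. On chromosome 14 from 56194079 to 56194625 the values were 279.7 and 92.3. These 3 regions stood above the 97th percentile of both lists. Chromosome 6 from 29389043 to 29389843 had 268.3 for MyoD and 21.9 for the chimera. Chromosome 7 from 120028999 to 120029462 had 252.4 and 19.6, with sites of all 3 other lists 1215 to 1251 bases away. On chromosome 2 from 90875434 to 90876162 the values were 249.1 and 58.3. In the chimera list the regions on chromosomes 6 and 7 stood at percentiles 83.5 and 80.7, and that on chromosome 2 at 96.9.

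The leading regions by chimera value overlap with these. The region on chromosome 7 from 19876615 to 19877022 had the highest chimera value, 175.4, with a MyoD value of 223.6, and its MyoD site of 384 bp lay inside a chimera site of 408 bp with centres 10.0 bases apart. The nearest NeuroD2, WC or WCS site was 64141 bases away, so no other list came near it. Next came chromosome 11 from 94335497 to 94336135, with a chimera value of 122.5 and a MyoD value of 63.5, percentiles 99.6 and 95.2. Sites of all 3 other lists lay 2877 to 2913 bases from it. Chromosome 17 from 8199432 to 8200011 had 121.8 for the chimera and 211.9 for MyoD, and the region on chromosome 3 from 98237969 to 98238360 had 79.3 and 180.2. The regions on chromosomes 14 and 4 already named came between these last 2. By the smaller of both percentiles the regions on chromosomes 7, 17 and 14 led, all above the 99th percentile in both lists.

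A few regions had nearly opposite ranks. On chromosome 16 from 5146874 to 5147452 the chimera value was 49.3, percentile 95.9, and the MyoD value 5.62, percentile 7.80. On chromosome 1 from 187718259 to 187718531 they were 20.1 and 5.13, and on chromosome 4 from 106520294 to 106520698 they were 33.3 and 6.28. In the other direction, the region on chromosome 17 from 49134881 to 49135342 had a MyoD value of 92.7, percentile 97.8, and a chimera value of 5.22, percentile 2.08. Another on chromosome 18 from 57371836 to 57372288 had 159.2 for MyoD and 5.39 for the chimera, and that on chromosome 1 from 39703231 to 39703615 had 70.9 and 5.22. In all 6 both sites had centres at most 27.0 bases apart, so the unequal ranks belong to sites at nearly the same position. The lower of both values lay between 5.13 and 6.28 in each, close to the lower limit of the lists.

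Most overlapping MyoD and chimera sites in these regions had close centres. The rule itself joins only sites that overlap, so some closeness follows from the choice of regions. A single MyoD site and a single chimera site made up 2605 of the regions, 98.6%. Another 33 had 2 MyoD sites and 1 chimera site, 4 had 1 and 2, and 1 had 4 and 2. Among the 2684 overlapping pairs the centres lay a median of 26.5 bases apart (quartiles 11.0 and 68.5), and 2241 pairs, 83.5% (82.0 to 84.9%), had centres at most 100 bases apart. Fragments of about 150 to 600 bp, to which the chromatin was sonicated, are longer than both quartiles. In regions of all 5 lists 77.3% (75.9 to 78.6%) of MyoD and chimera pairs met that distance, but their sites were wider.

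The chimera site was the wider one in 65.4% of the pairs, with a median difference of 37.0 bp. Median width was 382 bp for MyoD and 417 bp for chimera sites in these regions, and 358 and 431 bp over the whole lists. The MyoD sites were thus wider and the chimera sites narrower than is typical for their lists, in the same direction as their ranks. The shorter site lay wholly inside the other in 1601 pairs, 59.6%. The widest regions were on chromosome 15 from 76034854 to 76038978, with 4 MyoD and 2 chimera sites over 4125 bp, with 2 more on chromosome 6, at 127716275 to 127718434 and 120615353 to 120617501.

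**Figure D4:**
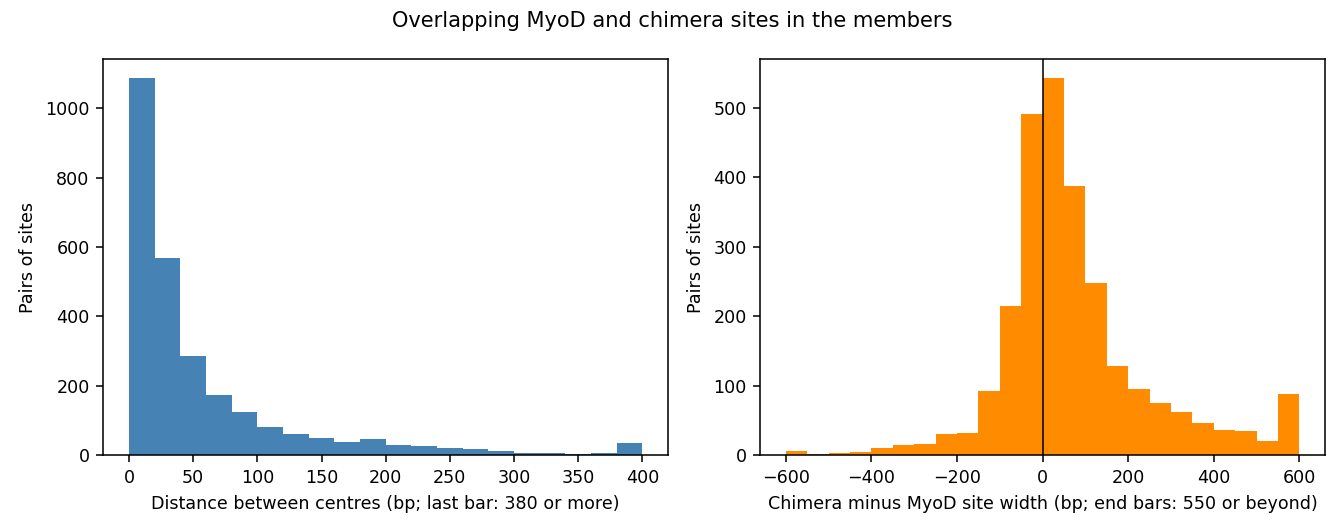
Distance in bp between the centres of the 2684 overlapping MyoD and chimera sites (left, the last bar holding 380 or more) and chimera minus MyoD site width in bp (right, the end bars also holding all larger differences). Centres are a median of 26.5 bases apart, and the widths lean to the right of 0, where the chimera site is wider.

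At the edge of the rule few regions depended on a small overlap. Only 7 of the 2684 pairs overlapped by under 50 bases. The smallest overlap was 7 bases, on chromosome 1 from 75396152 to 75397310. Just inside the rule, 28 regions, 1.06%, had a site of another list within 100 bases without touching it. The nearest were on chromosome 5 from 112007819 to 112008777, with a WCS site 5 bases away, on chromosome 6 from 98945697 to 98946073, with a WCS site 7 bases away, and on chromosome 13 from 37720627 to 37720974, with a NeuroD2 site 10 bases away. Just outside it, the region on chromosome 2 from 119125378 to 119126189 shared 4 bases with sites of NeuroD2 and WCS. Another on chromosome 2, from 72019178 to 72020019, shared 13 bases with a WC site, and that on chromosome 13 from 29050131 to 29050938 shared 23 with a NeuroD2 site. Of 1106 regions with both sites and exactly 1 site of the other lists, 264 had a value under 6 at that site, close to the lower limit of 5. These were 103 of 655 for WC, 81 of 249 for NeuroD2 and 80 of 202 for WCS. The share of all sites of those lists under 6 was not counted, so whether low values are particular to this edge is unknown. Only 4 of the 1106 overlapped that site by under 50 bases.

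Away from the regions themselves, NeuroD2, WC and WCS sites lay at distances much like those from regions of MyoD alone and of the chimera alone. All 3 kinds of region hold no site of those lists by definition, so the likeness does not extend to MyoD sites in general. The nearest site of any of the 3 lists lay a median of 11197 bases away, against 11615 for regions of MyoD alone and 12210 for regions of the chimera alone. A site of those lists lay within 1 kb of 276 regions, 10.4% (9.30 to 11.7%), within 10 kb of 46.7% (44.8 to 48.6%) and within 50 kb of 86.5% (85.2 to 87.8%). For regions of MyoD alone the shares were 9.82% (9.32 to 10.3%), 46.1% (45.3 to 47.0%) and 86.1% (85.5 to 86.7%), and for regions of the chimera alone 11.2%, 44.8% and 85.4%. At each of these distances the intervals of the 3 kinds of region overlapped. Taken list by list, the median distance was 17340 bases to a NeuroD2 site, 17616 to a WC site and 22168 to a WCS site, the last being the shortest of those 3 lists.

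**Figure D5:**
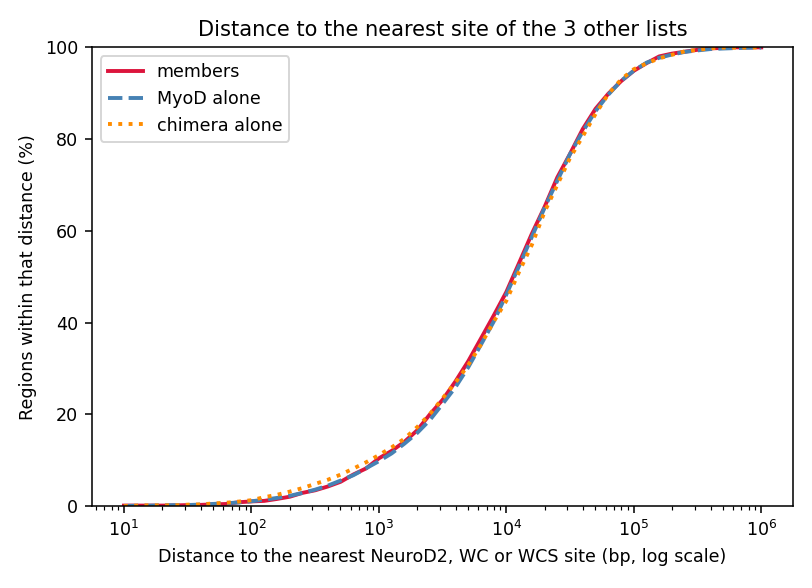
Cumulative percentage of regions (y axis) with a NeuroD2, WC or WCS site within a given distance in bp (x axis, log scale), for the regions of MyoD and the chimera alone (red), MyoD alone (blue, dashed) and the chimera alone (orange, dotted). The 3 curves run together and reach 46.7%, 46.1% and 44.8% at 10 kb.

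The neighbours within 1 kb were of mixed kinds. For the 276 regions with one, the nearest region holding NeuroD2, WC or WCS was held by all 3 of them in 120 cases and by 1 of them in 106. It also held MyoD and the chimera in 91 cases and neither in 113. Some regions of MyoD and the chimera alone thus stood beside a region with sites of both proteins, and others beside a region with neither. How many of these neighbours were held by every list was not counted. No matching counts around other kinds of region are given here, so these are a description only.

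The wider surroundings resembled those of regions of MyoD alone and, apart from MyoD sites, those of regions of the chimera alone. They were less crowded than those of regions held by all 5 lists. Within 50 kb of the centre, other sites averaged 2.86 for MyoD, 1.60 for the chimera, 2.58 for NeuroD2, 2.37 for WC and 2.00 for WCS. Around regions of MyoD alone the averages were 2.83, 1.50, 2.60, 2.32 and 1.97 in the same order. They were 2.39, 1.56, 2.71, 2.36 and 2.06 around regions of the chimera alone, and 3.39, 2.16, 3.96, 3.49 and 3.08 around regions of all 5 lists. No NeuroD2 site lay in that window for 21.8% of the regions of MyoD and the chimera alone and for 11.4% of those of all 5 lists.

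The nearest region with both sites was slightly more often of this kind for these regions than for other regions with both sites. The nearest other region with a MyoD and a chimera site was also free of the other 3 lists for 924 of 2643, 35.0% (33.1 to 36.8%), and for 1658 of the 5552 other regions, 29.9% (28.7 to 31.1%). Over all 8195 regions with both sites it was 31.5% (30.5 to 32.5%). Neighbouring regions enter such counts from both sides. For the regions of MyoD and the chimera alone, the median distance to the next of their kind was 155206 bases. Another lay within 100 kb of 1037 of the 2643, 39.2%. Of the windows of 100 kb that held any, 1969 held 1, 277 held 2, 33 held 3, 4 held 4 and 1 held 5. No such spacing is given here for other kinds of region, so whether these stand apart or crowd together is not known. The window on chromosome 1 from 194600001 to 194700000 held the most, 5, among 13 MyoD, 8 chimera, 6 NeuroD2, 6 WC and 8 WCS sites. Its 5 regions had MyoD values of 20.9, 33.5, 22.9, 46.9 and 90.4 and chimera values of 5.75, 11.9, 8.51, 15.7 and 15.4, which put them at percentiles 75.9 to 97.6 of the MyoD list and 10.4 to 73.8 of the chimera list. The windows from 63400001 on chromosome 8 and from 119400001 on chromosome 11 held 4 each. The first of these had 8 MyoD and 5 chimera sites but 0 NeuroD2, 1 WC and 0 WCS sites, and the second had 12, 5, 3, 1 and 1. Windows from 15900001 and from 56400001 on chromosome 17 tied with them.

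All 19 autosomes carried such regions, in similar proportion to their MyoD sites. The share of MyoD sites that fell in them was 10.7% over the genome. It was highest on chromosome 14, with 92 of 762 sites or 12.1% (9.84 to 14.6%), and lowest on chromosome 5, with 166 of 1758 or 9.44% (8.12 to 10.9%). These intervals overlap, and both include the share over the genome.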

How the data were processed

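The submitters' processing notes name CASAVA 1.8.2, BWA 0.7.5 and the build mm9. How sites were called and filtered, and whether libraries were pooled, is not given in the sources used here. The value of each site is used as the authors deposited it, with no unit named, and was taken here as −log10 p from its range. Values serve only to rank sites within a list.

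Intervals of the 5 lists were joined where they shared at least 1 base. A region's value in a list is that of its highest site, and percentiles give ties their mean. Bins were made by value, with ties in genome order. Distances to a site are the bases between a region and the nearest site. Those to the nearest other region of the same kind, or with both sites, run from centre to centre. Shares have exact Clopper-Pearson 95% intervals. Each group has 1 list, so no test was made. The main joining and the distances were tested on simulated data in which regions lay well apart and sites overlapped widely. Small overlaps and the other ways of joining were not tested so.

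The regions and lists were chosen with earlier results of these data known. Named regions are the 6 highest by MyoD and by chimera value, the 3 highest by the smaller percentile, the 3 most unequal in each direction, the 3 nearest to another list on each side of the rule, the 3 widest, the windows of 100 kb with the most regions and the chromosomes at both ends. The region with the smallest overlap was added after its value was seen. The software was Python 3.11.15 with pandas 2.3.3, numpy 2.4.6, matplotlib 3.10.9 and scipy 1.17.1.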

Additional observations from a re-analysis of the deposited data

How the results depend on the processing

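The 7 settings run were the upper 50% of each list, only the NeuroD2, WC and WCS lists cut, lists of equal length, centres within 100 bases, an overlap of 50% of the shorter site, sites up to 500 bases apart joined, and autosomes with a common range of widths. The number of regions was 2643 and moved by over 1.5 times in 2 of them: it was 1524 with the upper 50% of each list by value and 4075 where only the NeuroD2, WC and WCS lists were cut to that 50%. Of the 2643 regions, 919 were kept in the first case, 2007 with lists of equal length, 2241 where centres had to lie within 100 bases and 2481 to 2643 in the others. The share of MyoD sites was 12.3% with the 50% of each list, 10.3% with centres within 100 bases, 16.6% with the other lists cut and 20.6% with equal length. The share of chimera sites was 21.2% with the 50% of each list, 28.4% with the other lists cut, 20.5% with equal length and 17.7% where sites up to 500 bases apart were joined. The median MyoD percentile was 70.6 with the 50% of each list and 62.6 with equal length. The median chimera percentile was 46.2 with the 50% of each list, 46.6 with the other lists cut and 50.8 with equal length, where it was no longer below 50. It stayed below that of MyoD in all 7. The share with a site of the other lists within 10 kb was 31.6% with the 50% of each list, 52.1% with centres within 100 bases, 31.5% with the other lists cut, 33.0% with equal length and 43.1% with sites joined, and the cause was not tested.

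The fall in the share free of other lists from the lowest to the highest of 5 bins was 37.9 points by chimera value and 11.6 by MyoD value, and its alternatives were chosen after seeing the data. By chimera value it was 46.7 with the other lists cut and 46.1 with equal length. By MyoD value it was 8.44 with centres within 100 bases and 14.7 with equal length. The fall by chimera value was the larger one in all 7. Leaving out a library was not possible with 1 list per group. The planned results on E-boxes and on genes were not run, because they need mm9. No paired analysis was possible because each group has 1 list and no test was made. Depth is unknown, so a site missing from a list may lie below its threshold.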
